A study of Mus musculus with 147 samples.

Results

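The 34 genes described here encode the core machinery of autophagy and the sestrins. Their transcript levels were followed in 7 populations of macrophages and monocytes from fasted or refed mice. For 3 of these populations they were also followed in mice on normal or high-fat diet. The genes were taken from a list of named genes, with no use of their values, and all 34 were matched among the 50686 genes counted in both deposited tables. By role they are 5 genes of the initiating ULK kinase complex, 5 of the class III lipid kinase complexes, 5 that supply or read the growing membrane, 7 of the conjugation machinery, 5 ATG8-family genes, 4 cargo receptors and the 3 sestrins. RNA with poly(A) tails from macrophages and monocytes sorted by flow cytometry was made into full-length Smart-seq2 libraries, a method for low cell numbers. In the feeding experiment, mice were fasted for 12 h, or fasted and then refed chow for 2 h, in 4 cohorts, and 400 cells were taken from each of 7 populations: adipose tissue macrophages, monocytes, microglia of the brain, colonic macrophages, pancreatic islet macrophages, Kupffer cells of the liver and peritoneal macrophages. It gave 110 libraries, with 6 to 9 in each group. In the diet experiment, mice received normal diet, high-fat diet for 8 weeks, or high-fat diet with streptozotocin given at week 4. Streptozotocin is a compound toxic to the insulin-producing beta cells, which raised blood glucose. Its 37 libraries, 3 to 5 in each group from 8 cohorts, came from 400 islet macrophages, 100000 peritoneal macrophages or 5000 microglia, so that cell number and population cannot be told apart there. In the feeding experiment 4 islet libraries carry a pair of replicate numbers in their titles, and nothing says whether they pooled mice. Strain, sex and age do not appear in the labels, nor do these say whether libraries with the same number came from the same mouse.

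Autophagy encloses cytoplasm in a double membrane that fuses with the lysosome, and it is known to be held back by the nutrient-sensing kinase complex mTORC1 and promoted by fasting. The ULK complex starts the process, the lipid kinase complexes mark the membrane with phosphatidylinositol 3-phosphate, and the conjugation enzymes attach ATG8-family proteins, the LC3s and GABARAPs, to phosphatidylethanolamine in it. Cargo receptors such as p62, the product of Sqstm1, bind ubiquitinated cargo and ATG8 proteins together. Sestrins restrain mTORC1 through GATOR2, and Sesn2 in addition acts as a leucine sensor. Much of this pathway is regulated on the proteins themselves, which were not measured, and transcript levels are not a measure of autophagic flux.

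Depth ran from 7915242 to 27315750 counts per library in the feeding experiment and from 11349232 to 34466388 in the diet experiment. Levels are in CPM, counts scaled to the TMM library size, as mean ± SD over libraries. Markers of the labelled population summed to more than in every library of the other populations for monocytes, microglia, Kupffer cells and peritoneal macrophages. For adipose (1740 to 3607 against a highest value of 1921 elsewhere), colonic (878 to 2914 against 13770) and islet macrophages (26672 to 40227 against 54238) they did not. Colonic libraries held pancreatic acinar markers at 10.97 to 183874 CPM and B and plasma cell markers at 140 to 131053 CPM, against highest values of 678 and 4897 in the other populations. Islet libraries held endocrine markers at 746 to 3691 CPM, against at most 60.5 elsewhere, and Kupffer libraries held endothelial markers at 852 to 3597 CPM, against at most 357. In 4 refed islet and Kupffer libraries the free-text description names fasting only, and they were kept as refed. Of the 34 members, 18 were counted in every library, and zeros fell mainly on Sesn3 (34 of 147 libraries), Optn (21), Wipi1 (15) and Sesn2 (12). Member values at 0 made up 2.63% in libraries of 400 cells, 1.72% in those of 5000 cells and none in those of 100000. In 12 members an exon overlaps that of another gene, among them Sqstm1, Optn, Becn1 and Gabarapl1, and reads of the overlap may not be told apart. For a sorted population, more RNA per cell and a larger share of the cells that express a gene cannot be told apart.

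The promoters of Sqstm1, Optn and Sesn2 are shown because the results below turn on these 3 genes: the population difference with the smallest p, the member that separated fasted from refed microglia, and the member nearest to the threshold in the diet comparisons. Each is the RefSeq window upstream of the annotated start (assembly GRCm38.p6, the mm10 build, all on the minus strand), from chr11:50210821-50211070, chr2:5064118-5064367 and chr4:132510482-132510706, printed 5′ to 3′ with capitals for a match to the searched motifs. The Sesn2 stretch was shortened at its 3′ end, where the window runs into the gene as annotated for the counts, and the end of the printed stretch, with its motif, lies inside that gene too.
Sqstm1: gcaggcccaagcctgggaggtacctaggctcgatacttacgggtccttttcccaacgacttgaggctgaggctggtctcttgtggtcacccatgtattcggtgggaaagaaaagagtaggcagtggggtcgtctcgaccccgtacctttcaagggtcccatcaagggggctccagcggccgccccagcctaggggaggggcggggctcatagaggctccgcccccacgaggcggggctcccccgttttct
Optn: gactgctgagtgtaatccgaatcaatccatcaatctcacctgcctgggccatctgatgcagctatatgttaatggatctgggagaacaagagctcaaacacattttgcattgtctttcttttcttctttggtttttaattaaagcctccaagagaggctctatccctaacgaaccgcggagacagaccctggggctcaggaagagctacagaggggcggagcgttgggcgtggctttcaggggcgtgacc
Sesn2: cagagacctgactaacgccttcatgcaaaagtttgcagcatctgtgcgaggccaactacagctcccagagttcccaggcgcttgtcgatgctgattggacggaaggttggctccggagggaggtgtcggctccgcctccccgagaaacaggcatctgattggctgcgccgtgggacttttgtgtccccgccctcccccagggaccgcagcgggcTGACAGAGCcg
In windows of 250 bases, searched on both strands, the antioxidant response element core TGACNNNGC, bound by NRF2 (Nfe2l2), occurred in 4 of 28 members with a promoter in the table (Atg13, Sesn2, Tax1bp1 and Ulk2, 14.3%) and in 11.5% of 27018 genes. The 1 in Sesn2 begins 36 bases before the RefSeq start. The E-box CACGTG, bound by TFEB and TFE3, which activate lysosomal and autophagy genes, occurred in 3 of 28 (Atg3, Atg5 and Atg7, 10.7%) against 6.86%. TGATGNAA, the core of the composite element of C/EBP and ATF4, occurred in 0 of 28 against 3.9%. A match shows only that these letters are in the window.

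Across the 7 populations of fasted mice, the cargo receptor Sqstm1 stood highest in islet macrophages and lowest in monocytes, and the ATG8-family genes Gabarapl1 and Gabarap stood highest in adipose tissue macrophages. Atg7, the E1-like enzyme of both conjugation reactions, stood highest in peritoneal macrophages, and Ulk2, a kinase of the initiation complex, in microglia. Of the 34 members, 18 differed between populations (adjusted p below 0.05, edgeR quasi-likelihood F test over 16114 genes), against 49.4% of all genes tested. An unadjusted p below 0.05 was found for 19 members, against 54.6%. Of the 18, 16 also spanned at least 1 log2 unit between the highest and the lowest population, against 48%. The share called among members was thus close to that of all genes. The median span was 1.56 log2 units over the members and 3.15 over all genes. In 9 of the 16 (Atg2a, Atg7, Gabarap, Gabarapl1, Map1lc3a, Optn, Sesn1, Sqstm1 and Ulk2) the call held under each of the alternative settings run. The other 7 were Atg3, Tax1bp1, Pik3r4, Nbr1, Sesn2, Atg4d and Atg9a. Becn1 (0.74) and Map1lc3b (0.61) differed but spanned less than 1 unit. Among the 16 members that missed the threshold were Ulk1, Wipi1, Sesn3, Rb1cc1 and Uvrag (adjusted p = 0.0689).

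**Figure D1:**
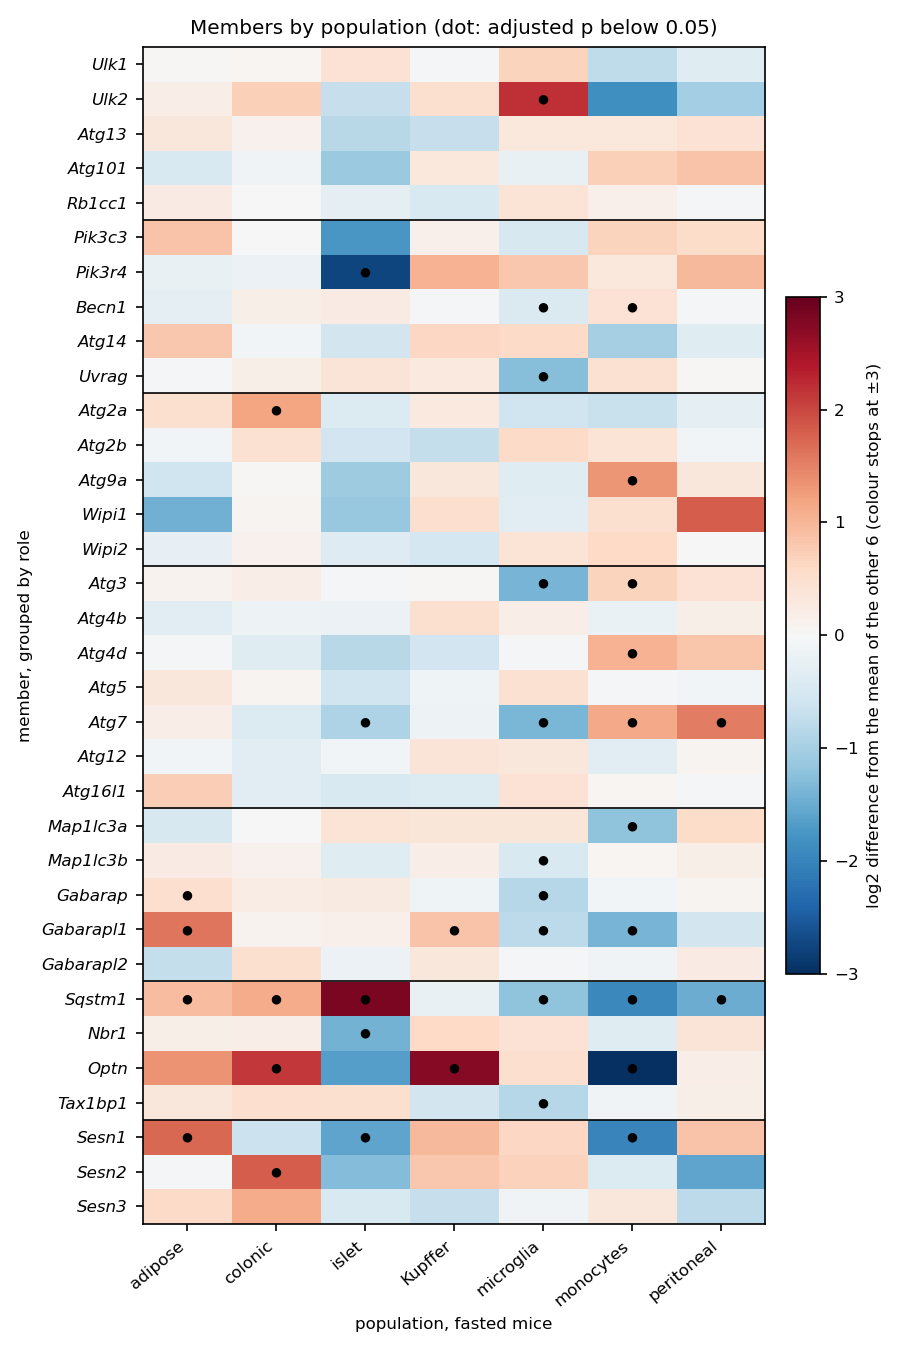
Log2 difference of each of the 34 members between a population of fasted mice and the mean of the other 6, by colour on a scale that stops at ±3, with members grouped by role and a dot where the adjusted p was below 0.05 (edgeR). Sqstm1 is high in islet macrophages (2.82) and low in monocytes (-1.94). In microglia 9 of 10 dots mark lower members, beside 2477 genes called higher and 1985 lower of all 16114.

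Among the receptors, Sqstm1 had the smallest p of any member (adjusted p = 8.79e-23, span 4.09 log2 units). In fasted islet libraries it ran from 1732 to 7379 CPM with a median of 5828, in colonic libraries from 829.5 to 2823 (median 1866), in adipose from 1042 to 2291 (median 1865) and in Kupffer cells from 661 to 974 (median 829.7). Microglia ran from 297 to 705 CPM (median 527), peritoneal macrophages from 322 to 493.1 (median 417) and monocytes from 230 to 353 (median 318). The highest monocyte library thus stood below every islet, colonic, adipose and Kupffer library, while the lowest islet library lay within the colonic and adipose ranges. By means, the order was islet (5198 ± 2350, n = 6), colonic (1945 ± 665, n = 8), adipose (1732 ± 457, n = 8), Kupffer (823 ± 128, n = 6), microglia (496 ± 141, n = 8), peritoneal (407 ± 60.3, n = 8) and monocytes (313 ± 39.1, n = 8). Islet and colonic macrophages differed (adjusted p = 5.85e-06, edgeR), as did adipose macrophages and Kupffer cells (0.00171) and Kupffer cells and microglia (0.0032). The neighbours colonic and adipose (0.779), microglia and peritoneal (0.404), and peritoneal and monocytes (0.216) did not differ beyond their spread. Against the mean of the other 6 populations, islet macrophages were higher by 2.82 ± 0.14 log2 units (SE, adjusted p = 1.66e-21). Islet endocrine markers summed to 942 to 3691 CPM in the same fasted libraries, and their part in the Sqstm1 level was not tested.

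Per kilobase of exon, taken over all annotated exons of a gene, Sqstm1 held from 75.4% of the summed level of the 4 receptors in peritoneal macrophages to 97.8% in islet macrophages. These lengths include exons that the cells may not use, so shares between genes, here and below, are approximate. The other receptors showed other orders. Optn, the optineurin receptor known for removal of damaged mitochondria and bacteria, was highest in Kupffer cells, at 28.6 to 73.9 CPM with a median of 44.2, and was listed at 0 in 5 of 8 monocyte libraries, whose highest value was 6.11. Kupffer cells exceeded the mean of the other populations by 2.73 ± 0.74 log2 units (adjusted p = 0.00687, edgeR) and monocytes lay below it by a fitted -5.25 ± 1.15 (adjusted p = 4.51e-04), a size that depends on the zeros. Nbr1, a p62 partner with a similar domain layout, averaged 153.5 CPM in Kupffer cells and 44.9 in islet macrophages, which were lower than the mean of the others by -1.42 log2 units. Tax1bp1, a receptor also known for dampening inflammatory signalling, was lower in microglia (-0.86).

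**Figure D2:**
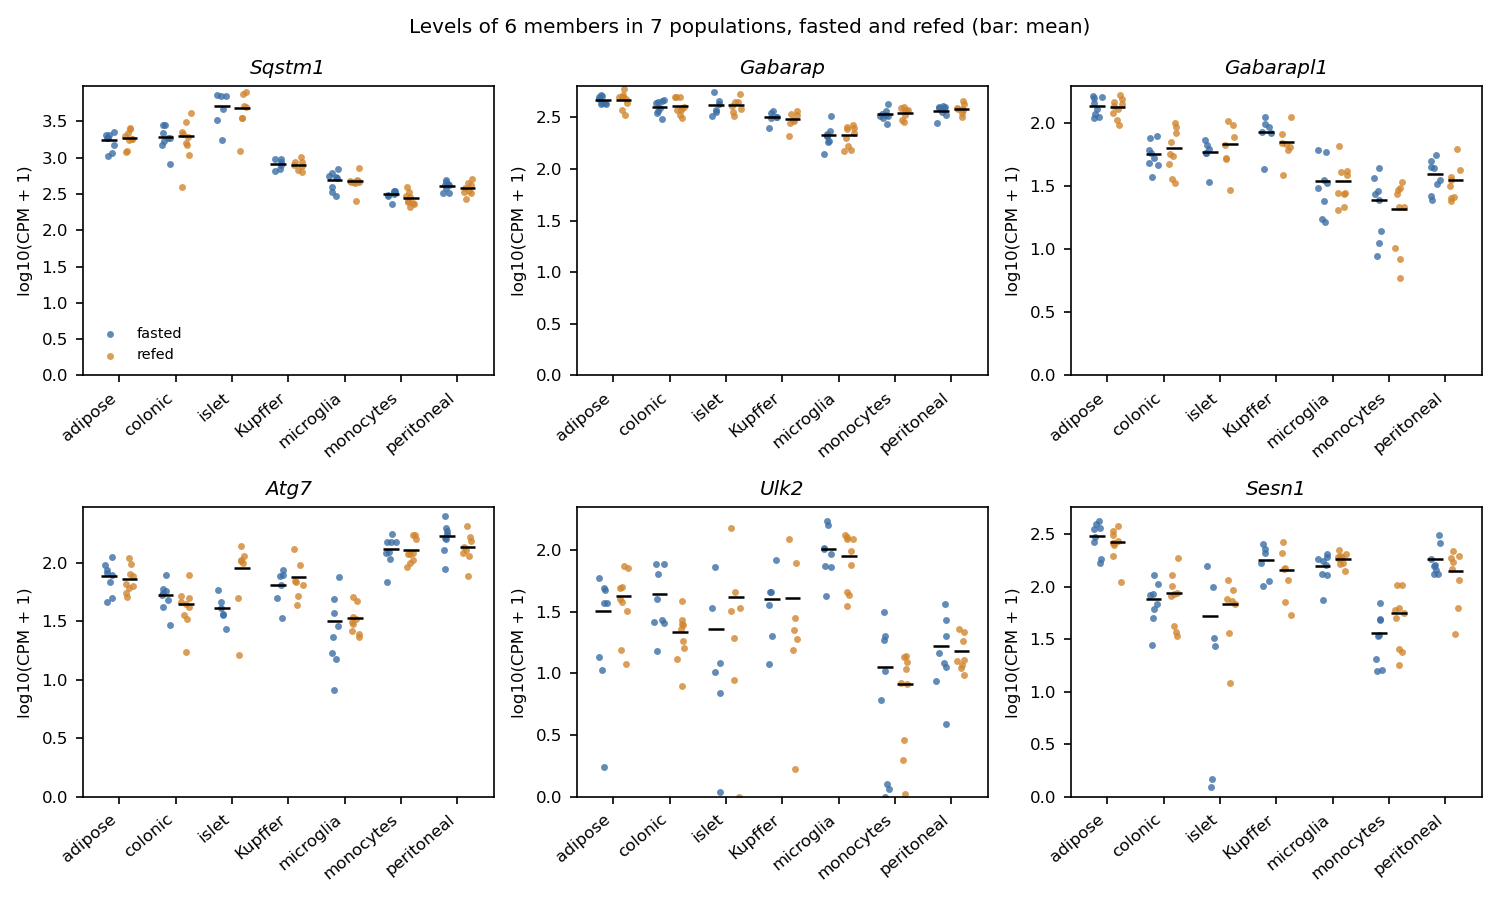
CPM of Sqstm1, Gabarap, Gabarapl1, Atg7, Ulk2 and Sesn1 in every fasted and refed library by population, on a log10(CPM + 1) axis, with a bar at the group mean. Fasted Sqstm1 runs from 1732 to 7379 CPM in islet macrophages and from 230 to 353 in monocytes, and fasted and refed points overlap in each population.

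Within the ATG8 family, Gabarapl1 ran from 108.5 to 162 CPM in adipose tissue macrophages (median 134), and no other fasted population except Kupffer cells (41.8 to 110.8) reached into that range. It averaged 135 ± 22.7 CPM there and 23.4 CPM in monocytes, the lowest population, and adipose macrophages exceeded the mean of the others by 1.61 ± 0.20 log2 units (adjusted p = 1.13e-08, edgeR). Adipocyte markers summed to 35.8 to 199 CPM in adipose libraries and to at most 18.2 elsewhere, and their part was not tested. Gabarap spanned less, from 467.5 ± 38.3 CPM in adipose macrophages to 212.7 ± 53.9 in microglia, and its groups were tight (adjusted p = 1.5e-09). Per kilobase it held 52.8% (microglia) to 70.5% (monocytes) of the family's summed level. Map1lc3a, an LC3 gene, spanned 1.51 log2 units (adjusted p = 0.00239) and was lower in monocytes (-1.21), with a median of 22.7 CPM there and of 60.2 in peritoneal macrophages. Map1lc3b, the LC3 most used as a marker of autophagosomes, had means between 174 and 257 CPM in all 7 populations (adjusted p = 0.0379). The fifth, Gabarapl2, did not pass the test.

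In the conjugation machinery, Atg7 ran from 87.95 to 249.8 CPM in peritoneal macrophages (median 168) and from 7.19 to 75.2 in microglia (median 25.1), with no overlap between them. Monocytes were also high (67.4 to 177 CPM), and both exceeded the mean of the others, peritoneal macrophages by 1.54 ± 0.20 log2 units (adjusted p = 2.39e-08, edgeR) and monocytes by 1.13 (adjusted p = 3.84e-05). Microglia (-1.37) and islet macrophages (-0.93) lay below it. Atg3, the E2-like enzyme of the ATG8 reaction, was lowest in microglia, at 2.91 to 104.4 CPM, by -1.39 ± 0.25 log2 units (adjusted p = 1.24e-05). In refed libraries the same contrast for Atg3 was -0.49 (adjusted p = 0.108). Atg4d, an ATG8-processing protease, was higher in monocytes by 1.04.

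Of the initiation complex, Ulk2 passed the test and Ulk1, Atg13, Atg101 and Rb1cc1 did not. Ulk2 ran from 41.3 to 169 CPM in microglia (median 96.7), against 0 to 30.4 in monocytes (median 7.22), and microglia exceeded the mean of the other populations by 2.18 ± 0.53 log2 units (adjusted p = 0.00114, edgeR). It was the only member called higher in microglia, where 9 others were called lower, beside 2477 genes higher and 1985 lower of all 16114. Ulk1, its close relative, had means from 13.7 to 31.7 CPM with ranges that overlapped in all populations. Of the lipid kinase complexes, Pik3r4, which encodes the regulatory subunit of the kinase, averaged 71.6 CPM in Kupffer cells and 7.75 in islet macrophages, where 3 of 6 libraries were at 0. The islet contrast was -2.75 ± 0.72 (adjusted p = 0.00593), and in refed libraries -0.74 (adjusted p = 0.34). Uvrag (-1.29) and Becn1 (-0.42), 2 other subunits, were lower in microglia. Among the membrane genes, Atg2a, a lipid transfer protein, was higher in colonic macrophages by 1.19 (adjusted p = 0.00177), with a range of 49.5 to 303 CPM. Atg9a, which encodes the scramblase of the seed vesicles, was higher in monocytes by 1.32 ± 0.39 (adjusted p = 0.0108), but by 0.44 (adjusted p = 0.686) in refed libraries. Wipi1, a reader of the lipid mark, had means from 5.0 to 32.6 CPM and missed the threshold.

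Of the sestrins, Sesn1 and Sesn2 passed the test. Sesn1, a p53 and FOXO target, ran from 166 to 425 CPM in adipose macrophages (median 325), from 131 to 309 in peritoneal macrophages and from 14.7 to 69.3 in monocytes (median 33.5). Adipose macrophages exceeded the mean of the others by 1.72 ± 0.35 log2 units (adjusted p = 2.89e-04, edgeR), and monocytes (-1.99, adjusted p = 0.001) and islet macrophages (-1.57) lay below it. The islet libraries spread from 0.258 to 157 CPM. Sesn2, the stress-induced sestrin, ran from 72.5 to 109.2 CPM in colonic macrophages (median 78.8) and from 3.03 to 18.5 in peritoneal macrophages (median 13.3), with no overlap. Colonic macrophages exceeded the mean of the others by 1.82 ± 0.55 (adjusted p = 0.0137). Sesn3 had means from 2.5 to 11.7 CPM and did not pass the test. Per kilobase, Sesn1 held from 41.7% of the summed sestrin level in colonic macrophages to 92.6% in peritoneal macrophages.

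The colonic differences stood beside RNA of other cells. In 2 fasted colonic libraries acinar markers exceeded 100000 CPM. Without them the colonic contrast was 0.99 for Sqstm1, 1.06 for Atg2a (adjusted p = 0.0219, edgeR), 1.79 for Sesn2 (adjusted p = 0.0464) and 2.01 for Optn (adjusted p = 0.0838, against 2.13 and 0.0272 with them). Sesn2 and Atg4d then no longer passed the test over all populations, and 14 members did.

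Counted against the mean of the other 6, 4 members were called in adipose macrophages (all higher, 11.8% of all genes called), 10 in monocytes (5 higher, 5 lower, 19%), 10 in microglia (1 higher, 9 lower, 27.7%), 4 in colonic macrophages (all higher, 18.2%), 5 in islet macrophages (1 higher, 4 lower, 13.9%), 2 in Kupffer cells (both higher, 12.8%) and 2 in peritoneal macrophages (1 each way, 21%). Members higher by at least 1 log2 unit numbered 2 in adipose macrophages (7.07% of all genes), 3 in monocytes (Atg7, Atg9a and Atg4d, 7.48%), 1 in microglia (Ulk2, 12.8%), 4 in colonic macrophages (14%) and 1 each in islet macrophages (6.91%), Kupffer cells (9.41%) and peritoneal macrophages (9.33%). Members lower by at least 1 numbered 5 in monocytes (Sqstm1, Gabarapl1, Optn, Map1lc3a and Sesn1, 7.27%), 4 in microglia (Sqstm1, Atg3, Atg7 and Uvrag, 9.71%), 3 in islet macrophages (Pik3r4, Nbr1 and Sesn1, 4.2%) and 1 in peritoneal macrophages (Sqstm1, 6.89%). These 7 contrasts share libraries.

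Mice on normal diet gave a second set of libraries for 3 of the populations. There 11 of 34 members differed, against 40.9% of 13667 genes, and 10 also by at least 1 log2 unit, against 39.9%. These 10 were Sqstm1, Gabarap, Gabarapl1, Atg7, Atg101, Uvrag, Tax1bp1, Wipi1, Ulk2 and Sesn1. The fasted and normal-diet calls shared 7 members (Atg7, Gabarap, Gabarapl1, Sesn1, Sqstm1, Tax1bp1 and Ulk2), 7 of 16 and 7 of 10. Of these, Sesn1 and Tax1bp1 lost the normal-diet call when certain single libraries were left out. Tax1bp1 was also not called between populations in refed libraries. Sqstm1 was 8767, 7009, 5180 and 6317 CPM in the 4 normal-diet islet libraries, against 374 ± 88.03 CPM (n = 5) in peritoneal macrophages and 563 ± 27.0 (n = 4) in microglia, so that islet macrophages were higher by 4.21 ± 0.23 and 3.59 ± 0.24 log2 units. Their islet endocrine markers summed to 2111 to 6646 CPM. Atg7 was 191, 138, 97.4, 151 and 165 CPM in peritoneal macrophages and 23.8, 15.4, 2.99 and 29.6 in microglia. Ulk2 was 110, 124, 123 and 87.2 CPM in microglia and 9.78 to 17.5 in peritoneal macrophages. Wipi1, which missed the threshold in fasted mice, was 22.9 to 38.9 CPM in the 5 peritoneal libraries, 12.7, 2.96, 0 and 5.31 in microglia and 0.932, 0.146, 0 and 0 in islet macrophages. These libraries came from 100000, 5000 and 400 cells in that order, so cell number and population cannot be told apart. Between peritoneal macrophages and microglia, Atg7 and Ulk2 were called in the same direction in both experiments (adjusted p below 0.05 and at least 1 log2 unit), 2 of the 4 fasted calls and 2 of the 3 normal-diet calls. Over 13407 genes tested in both tables, 23.3% and 26.4% were called in this contrast, and calls shared in direction made up 72.9% of the fasted and 64.2% of the normal-diet ones. For islet macrophages against microglia the shared calls were Tax1bp1, Uvrag and Sqstm1 (higher) and Sesn1 (lower), 57.1% of 7 and 44.4% of 9 calls, beside 58.6% and 44.9% over all genes. Against peritoneal macrophages they were Sqstm1 (higher) and Sesn1 (lower), 40% of 5 and 28.6% of 7 calls, beside 65.2% and 49.2% over all genes. The members' shares were thus near or below those of all genes.

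No member passed the test for refeeding in any of the 7 populations (0 of 34 called, adjusted p below 0.05, edgeR). The share of all genes called was 0% in 6 populations and 0.432% (49 of 11331) in peritoneal macrophages. From 33 to 34 members passed the filter on low counts: Optn did not in monocytes, Wipi1 in microglia, or Sesn3 in peritoneal macrophages. At an unadjusted p below 0.05 there was 1 member in adipose macrophages (5.16% of all genes), 4 in monocytes (2.65%), 2 in microglia (2.59%), 2 in colonic macrophages (2.59%), and 1 each in islet macrophages (2.42%), Kupffer cells (3.27%) and peritoneal macrophages (11%). Median differences over the tested members lay between -0.114 (peritoneal, 10 of 33 members higher in refed libraries) and 0.154 (islet, 21 of 34 higher) log2 units, and medians over all genes between -0.0433 and 0.0348. Without the 4 refed libraries described as fasted the count was also 0 in islet macrophages and Kupffer cells.

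The 95% intervals show how much of a change these libraries could have missed. Intervals within ±1 log2 unit numbered from 7 of 34 members in islet macrophages to 23 of 33 in peritoneal macrophages. Sqstm1 had intervals of -0.03 to 0.44 in adipose macrophages, -0.42 to 0.08 in monocytes, -0.36 to 0.29 in microglia, -0.45 to 0.51 in colonic, -0.54 to 0.21 in islet, -0.34 to 0.30 in Kupffer and -0.40 to 0.17 in peritoneal macrophages. In refed islet libraries it was again spread widely, at 1247 to 8121 CPM with a median of 4999. Gabarap differed by -0.07 to 0.09 over the 7 populations, Sesn1 by -0.57 to 0.73 and Sesn2 by -1.23 to 0.46.

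**Figure D3:**
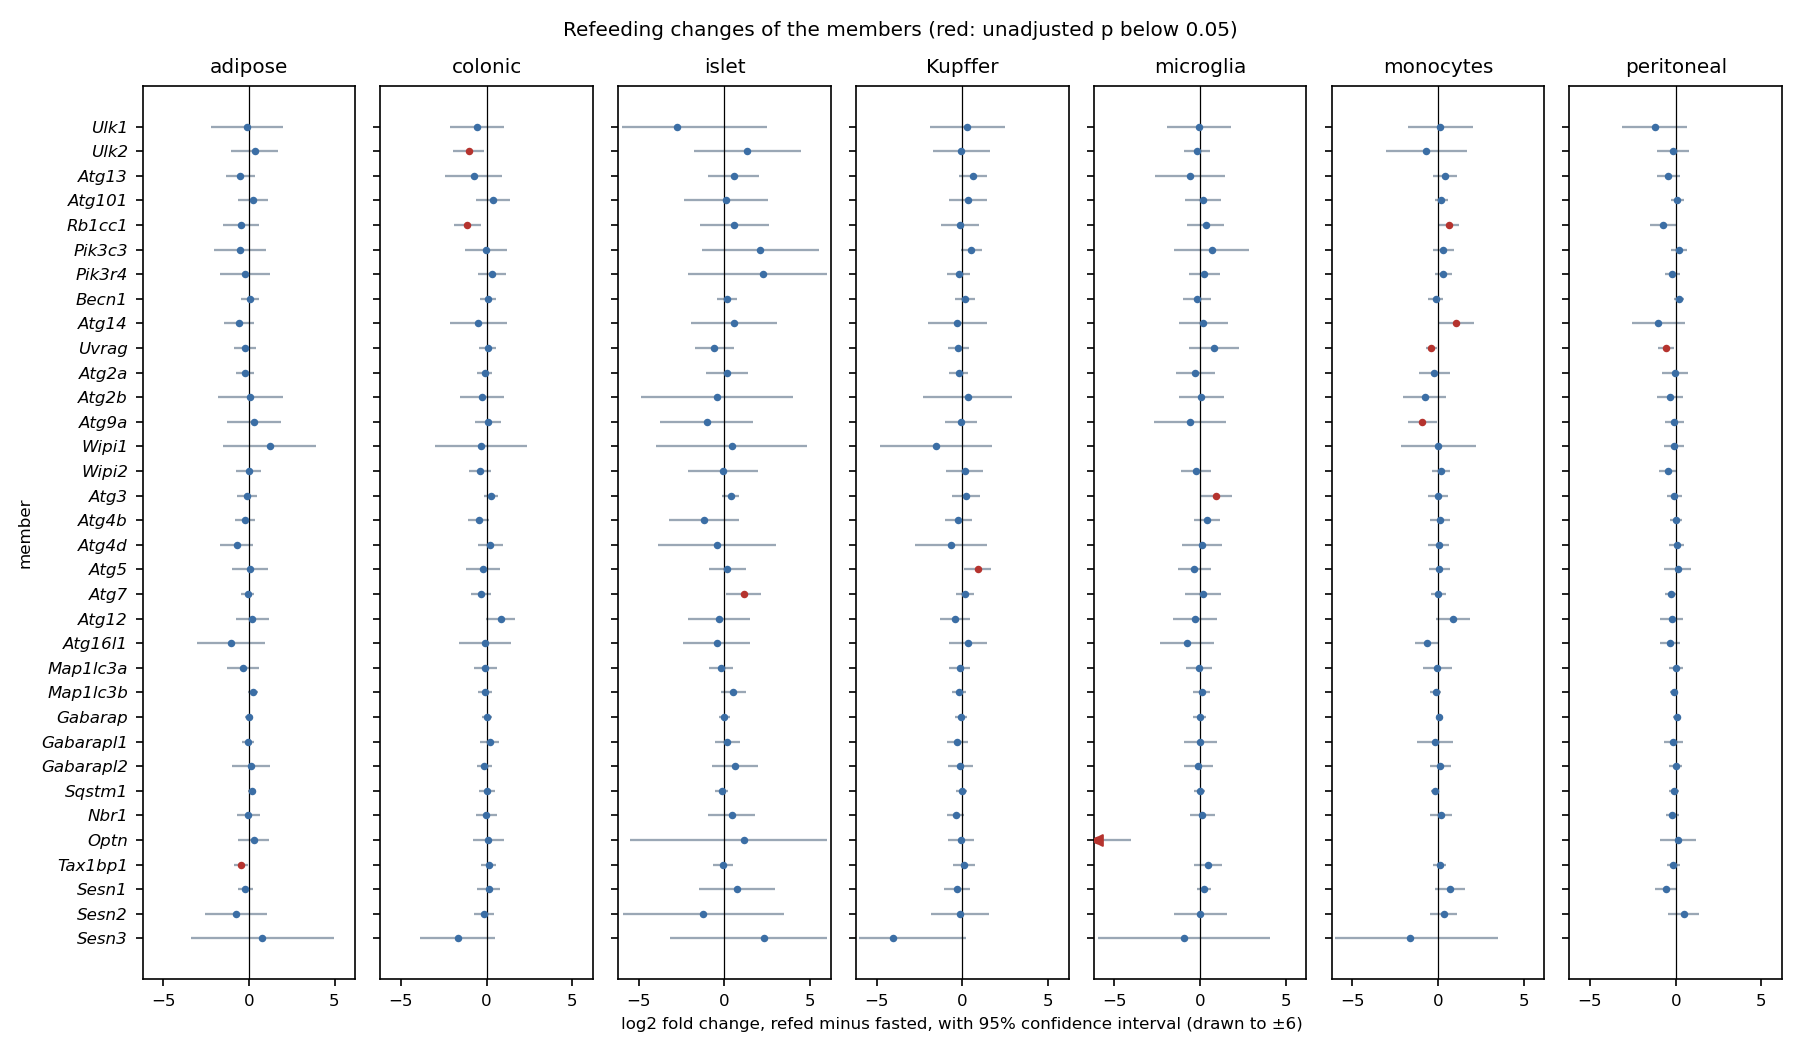
Log2 difference of refed against fasted libraries with its 95% interval for each member and population (edgeR), red where the unadjusted p was below 0.05, with intervals drawn to ±6 and an arrow where Optn in microglia lies beyond. No member passed the adjusted threshold, and the Sqstm1 intervals all stay within -0.54 to 0.51.

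The 2 members with the smallest p in each population were Tax1bp1 (-0.47 ± 0.19) and Map1lc3b (0.26) in adipose macrophages, Uvrag (-0.39) and Rb1cc1 (0.62 ± 0.28) in monocytes, and Optn and Atg3 (0.93 ± 0.43) in microglia. In colonic macrophages they were Rb1cc1 (-1.12 ± 0.37, unadjusted p = 0.00787) and Ulk2 (-1.04 ± 0.42), and in islet macrophages Atg7 (1.11 ± 0.46, and 0.65 ± 0.63 without the refed libraries described as fasted) and Atg3 (0.37). In Kupffer cells they were Atg5 (0.89 ± 0.38) and Sesn3 (-4.03). The Sesn3 interval there had a half-width of 4.25 log2 units. Refed Kupffer libraries held Sesn3 at 8.67 CPM in 1 library and at a median of 0.05 CPM in the others. In peritoneal macrophages the members were Uvrag (-0.57 ± 0.22) and Rb1cc1 (-0.72). Rb1cc1, the scaffold of the ULK complex also called FIP200, thus had estimates of either sign. As a mean over the 7 populations, 0 members were called, against 1.39% of 18640 genes.

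Among the refeeding estimates of all members, that of Optn in microglia was the largest. Fasted microglia had 16.04, 10.8, 4.78, 21.3, 23.9, 3.78, 29.2 and 5.98 CPM in replicates 1 to 8. Refed microglia had 0.146, 0, 0.048, 0.984, 0.421, 0.059, 0, 0 and 0 in replicates 1 to 9. Every fasted library lay above every refed one, and means were 14.5 ± 9.62 (n = 8) and 0.18 ± 0.33 (n = 9). Optn was the only 1 of 33 members whose groups did not overlap in microglia, where 3 of 10438 genes (0.0287%) did not. The means by cohort were 13.4 and 0.073, 13.02 and 0.516, 13.9 and 0.24, and 17.6 and 0. Their common direction follows from the lack of overlap and adds nothing to it. The refed counts were 0 to 24 and the fasted counts 89 to 450, so Optn passed the filter on low counts in microglia only through the fasted group, and both the fit and the count without overlap rest on that.

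The separate fit of microglia gave a log2 difference of -7.23 ± 1.52 (unadjusted p = 0.000185), which missed the threshold after adjustment over 10438 genes (adjusted p = 0.77, edgeR). DESeq2 called it (-7.36 ± 1.08, adjusted p = 4.88e-08), and over the other alternatives the adjusted p lay between 0.105 and 1. Because 4 refed libraries were at 0, the size of the fitted difference depends on how the model treats zeros. In the fit of all 110 libraries, the populations share a spread per gene, although their spreads may differ. There the effect of refeeding on Optn differed between populations (unadjusted p = 2.53e-04, adjusted p = 0.0104, edgeR). It was the only 1 of 34 members called, against 10.1% of 18640 genes. The reason for the difference from the separate fit was not tested. The effect in microglia minus the mean effect in the other 6 populations was -6.32 ± 1.24 (95% interval -8.78 to -3.85, adjusted p = 0.00189), a contrast in which 1.04% of all genes were called. In the other populations fasted and refed libraries overlapped: medians were 44.2 and 38.7 CPM in Kupffer cells, 21.9 and 29.9 in adipose, 24.04 and 22.6 in colonic, and 9.75 and 10.7 in peritoneal macrophages. Monocytes were listed mostly at 0 and did not pass the filter on low counts. In islet macrophages Optn had the widest refeeding interval of the members (half-width 6.63 log2 units). Both populations enter the mean of the other 6. All 20 marker lists overlapped between fasted and refed microglia, among them all 12 lists of other cell types. Few features fail to overlap between groups of this size (0.0287% of genes), so overlap cannot show that the cell mixture was unchanged. As examples of either direction, neutrophil markers reached 0.64 CPM in fasted and 1061 in refed libraries, and hepatocyte markers 391 and 5.48. The part of the cell mixture in the Optn difference was not tested. Own markers of the microglia summed to 12626 to 21017 CPM in fasted and 12026 to 21163 CPM in refed libraries. Microglia of the diet experiment, from 5000 cells, had 3.89, 1.66, 0 and 6.11 CPM on normal diet, in a table that was scaled separately.

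**Figure D4:**
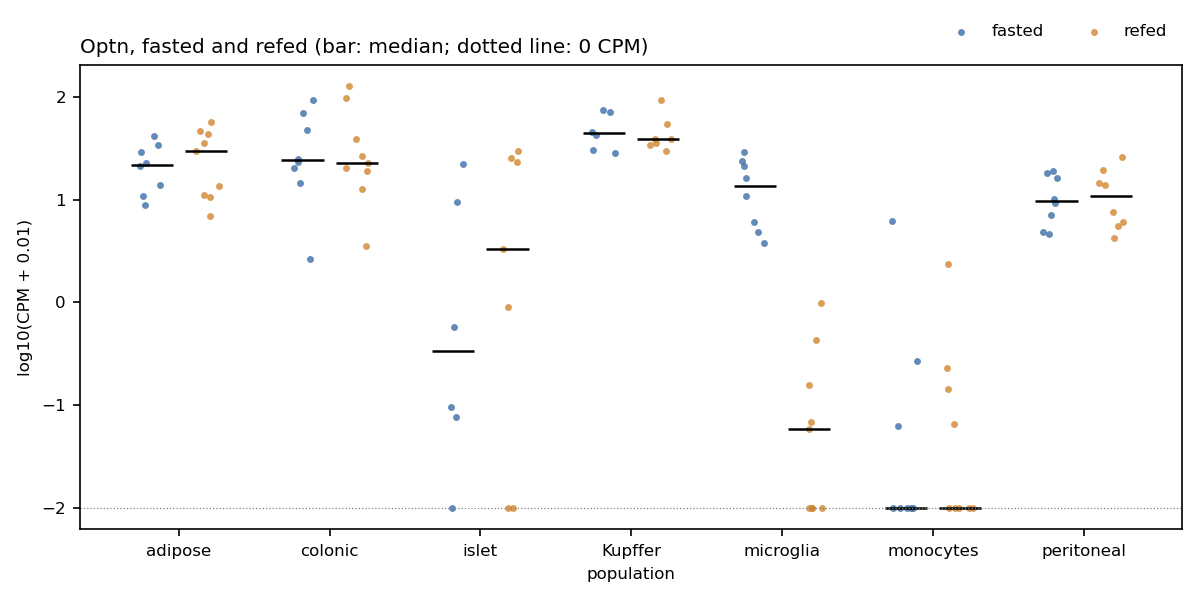
CPM of Optn in every fasted and refed library by population, on a log10(CPM + 0.01) axis with a bar at the median. The 9 refed microglia libraries sit at 0 to 0.984 CPM, below all 8 fasted ones (3.78 to 29.2), while the groups overlap in the other 6 populations.

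No member passed the test in any of the 9 comparisons of high-fat diet, streptozotocin and normal diet (0 of 34 called, edgeR). Of all genes, 1.29% (171 of 13225) were called between streptozotocin and normal diet in peritoneal macrophages and 0% in the other 8. The comparisons of a population share their groups, so the 3 values of a gene are not independent. In islet macrophages 0, 3 and 1 members had an unadjusted p below 0.05 (high-fat against normal diet, streptozotocin against normal diet, streptozotocin against high-fat diet), against 2.42%, 5.66% and 4.99% of all genes. In peritoneal macrophages there were 0, 3 and 2 (3.54%, 19.6% and 8.08%), and in microglia 3, 2 and 5 (3.16%, 2.15% and 4.77%). Peritoneal libraries gave the narrowest intervals, with 34, 30 and 30 of 34 within ±1 log2 unit, against 9, 6 and 3 in islet macrophages and 20, 17 and 16 in microglia.

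Sesn2 in peritoneal macrophages came nearest to a call. It was 14.4, 11.4, 8.995, 13.2 and 17.7 CPM on normal diet, 9.77, 14.1, 12.3 and 16.3 on high-fat diet, and 21.04, 22.3, 25.6, 19.6 and 26.1 with streptozotocin. All 5 streptozotocin libraries lay above all 9 others. The same order within cohorts (5 of 5 against normal diet, 4 of 4 against high-fat diet) follows from that and adds nothing to it. Sesn2 was the only 1 of 34 members whose groups did not overlap in either comparison, against 4.34% and 5.84% of all genes. The difference was 0.80 ± 0.19 log2 units from normal diet (95% interval 0.39 to 1.21, unadjusted p = 9.78e-04, adjusted p = 0.0578, edgeR) and 0.85 ± 0.21 from high-fat diet (0.39 to 1.30, adjusted p = 0.195). High-fat against normal diet gave -0.04 (-0.49 to 0.40). DESeq2 (adjusted p = 0.00463 and 0.018) and voom with quality weights (0.0197 and 0.015) called both streptozotocin comparisons, so the call depends on the test. The voom weights of normal-diet replicate 3 (0.123), which held the lowest Sesn2 value, and of streptozotocin replicate 3 (0.146) stood far below those of the other peritoneal libraries of this experiment. Without both, the differences were 0.65 ± 0.16 (adjusted p = 0.0647, edgeR) and 0.77 ± 0.16 (adjusted p = 0.0796).

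**Figure D5:**
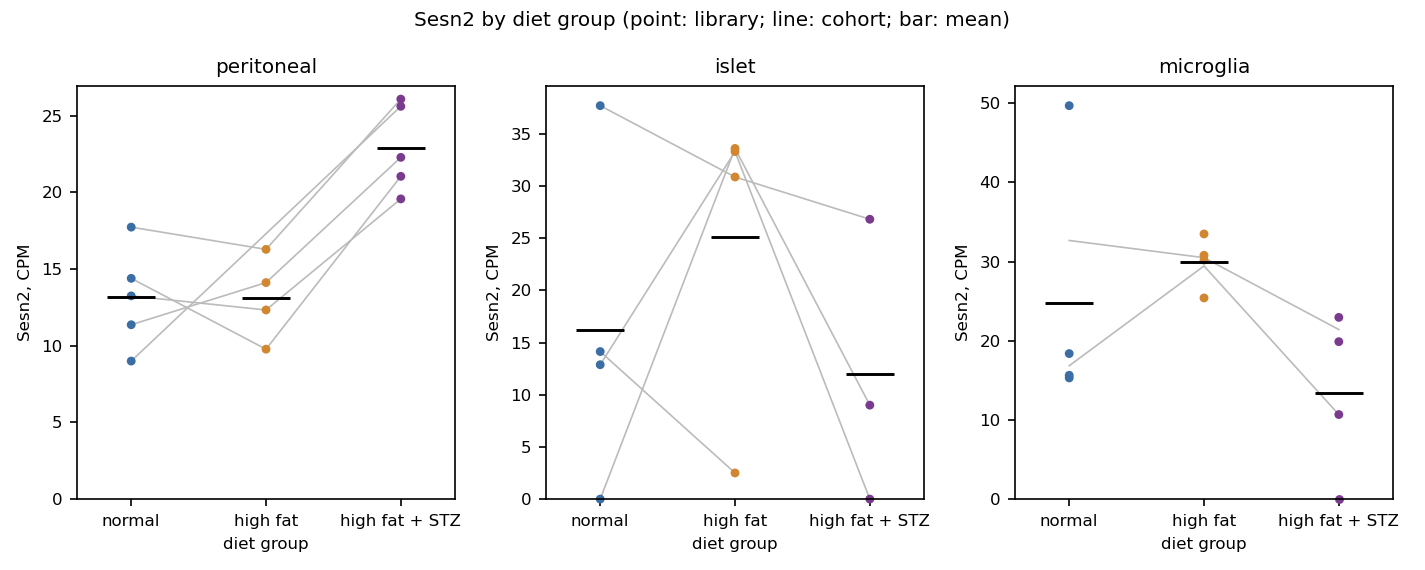
CPM of Sesn2 in every library of the diet experiment (points) by population and diet, with a bar at the group mean and lines joining the library means of a cohort across diets and passing over a diet with no library of that cohort. In peritoneal macrophages the 5 streptozotocin libraries (19.6 to 26.1 CPM) lie above all 9 others (8.995 to 17.7).

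Cell markers moved in the same libraries. Monocyte markers summed to 293 to 508 CPM in the streptozotocin peritoneal libraries, against 164 to 261 on normal diet and 126 to 181 on high-fat diet, with no overlap. Resident peritoneal markers summed to 4620 to 9732 CPM with streptozotocin, 7808 to 12432 on normal diet and 9765 to 11763 on high-fat diet. Of 20 marker lists, 19 overlapped against normal diet and 17 against high-fat diet, including all 12 of other cell types. In fasted mice Sesn2 averaged 22.1 CPM in monocytes and 11.9 in peritoneal macrophages. The part of a changed cell mixture in the Sesn2 difference was not tested. In microglia Sesn2 was 18.4, 15.3, 49.7 and 15.6 CPM on normal diet, 33.5, 25.4, 30.8 and 30.2 on high-fat diet, and 10.7, 0, 19.9 and 22.96 with streptozotocin, where it lay below every high-fat library (-0.95, 95% interval -1.88 to -0.02, adjusted p = 1). Gabarapl1 also lay lower without overlap there, at 18.03 to 25.3 CPM against 26.4 to 39.02 (-0.68, 95% interval -1.32 to -0.03, adjusted p = 1), which made 2 of 34 members, against 2.83% of all genes.

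In islet macrophages, Sqstm1 was 7148, 7501, 4611 and 5038 CPM on high-fat diet and 5892, 4497 and 3979 with streptozotocin, beside the normal-diet values of 5180 to 8767. Streptozotocin libraries were lower than normal-diet ones in 3 of 3 shared cohorts, by -0.39 ± 0.11 log2 units (95% interval -0.63 to -0.16), with an adjusted p of 0.697 by edgeR and 0.00485 by DESeq2. Islet macrophage markers summed to 36045 to 44324 CPM with streptozotocin and 21349 to 31305 on normal diet. Colonic markers, which share genes with that list, summed to 1711 to 2286 CPM with streptozotocin, 1215 to 1498 on normal diet and 1062 to 1512 on high-fat diet, also without overlap. The part of these markers in the Sqstm1 values was not tested, and the other 18 of 20 lists overlapped against normal diet. Atg4b, the main ATG8-processing protease, was 54.2, 76.7, 70.3 and 88.6 CPM on normal diet, 121, 73.5, 86.4 and 48.8 on high-fat diet, and 32.4, 47.2 and 21.6 with streptozotocin, below all libraries of the other diets (-1.14 ± 0.44, adjusted p = 0.85, and -1.21, adjusted p = 0.956, edgeR). Wipi2, which recruits the ATG16L1 complex to the membrane, was also lower without overlap against normal diet, on the scaling of the islet libraries alone. That made 2 of 34 members without overlap against normal diet, where 6.55% of all genes had none, and 3 against high-fat diet (Atg4b, Atg13 and Pik3r4, all lower), where 7.36% had none. Medians over all genes were 0.13, -0.15 and -0.29 log2 units in the 3 islet comparisons, in the order above, and medians over the members 0.07, -0.26 and -0.28.

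In microglia, Atg3 was 103.2, 93.1, 88.3 and 102.1 CPM on normal diet and 37.03, 60.8, 54.2 and 79.97 on high-fat diet, without overlap (-0.76 ± 0.23, adjusted p = 1, edgeR), and 105.4, 66.7, 95.7 and 74.1 with streptozotocin. Atg9a was 9.57, 12.1, 12.4 and 8.86 CPM on normal diet and 25.1, 14.4, 13.4 and 16.8 on high-fat diet, again without overlap. These 2 members stood against 2.6% of all genes. Tax1bp1 did not overlap between streptozotocin (130 to 151 CPM) and normal diet (77.3 to 120), against 1.3% of all genes. Other members with the smallest p were Ulk2 (0.42 and 0.45), Wipi2 (0.40) and Atg14 (0.61) in peritoneal macrophages, Pik3r4 (-0.92), Pik3c3 (0.89) and Atg14 (-0.99 and -1.08) in microglia, and Gabarap (-0.36) and Tax1bp1 (0.51) in islet macrophages, all above an adjusted p of 0.05. The difference of the diet effects between populations was called for 0 members, against 0.354% of 17230 genes.

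The genes around the machinery were followed as 4 lists: 24 further autophagy genes, 32 genes of mTORC1 and its Rag and GATOR regulators, 7 of AMPK, the kinase that senses low energy, and 16 transcription factors and stress genes that act on the pathway. In fasted populations, 10 of 24, 17 of 31, 3 of 6 and 11 of 16 tested genes differed (adjusted p below 0.05, against 49.4% of all genes), with Bnip3l (a mitophagy receptor, adjusted p = 8.67e-08), Flcn (folliculin, a Rag regulator, 5.73e-12), Prkab1 (an AMPK subunit, 3.15e-07) and Nfe2l2 (2.38e-17, edgeR) first in each list. Median spans were 1.74, 1.94, 2.32 and 2.48 log2 units, against 3.15 over all genes. On normal diet the counts were 6 of 24, 16 of 31, 2 of 6 and 7 of 16, against 40.9% of all genes. None of these genes passed the test for refeeding in any population. In the interaction of refeeding and population, where 10.1% of all genes were called, Prkaa2, a catalytic AMPK subunit, passed (adjusted p = 0.0234, edgeR). It was listed at 0 in most libraries, with values up to 9.30 CPM in 2 of 8 fasted monocyte, 16.7 in 3 of 9 refed colonic and 8.39 in 2 of 8 refed peritoneal libraries, and no fold is given. List medians for refeeding lay between -0.158 and 0.353 log2 units. The smallest adjusted p belonged to Cdkn1a, a p53 target, in peritoneal macrophages (1.00 ± 0.21, adjusted p = 0.0508). In the diet comparisons 1 gene was called: Rragd, a Rag GTPase that is a known TFEB target, between streptozotocin and normal diet in peritoneal macrophages (fitted 5.30 ± 0.82, adjusted p = 0.0111). Its levels there were 0 to 0.073 CPM on normal diet (counts of 0 to 1), 0.422 to 0.766 on high-fat diet and 0.513 to 3.51 with streptozotocin (counts of 9 to 38), so the fold rests on few reads.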

How the data were processed

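RNA was sequenced from 147 sorted libraries. Reads were trimmed with Trimmomatic 0.36, aligned to mm10 with STAR 2.5.1a and assigned with featureCounts, per the submitters' processing notes. The 2 deposited tables hold the authors' raw counts per gene, 1 for each experiment, with Ensembl identifiers. Of 50686 identifiers, 50462 had a symbol in GENCODE M21. The protocols do not say whether counting used strand.

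Groups came from the sample labels. Refeeding was tested in each population, with cohort as a term, on genes kept by filterByExpr with TMM scaling (edgeR 4.0.16, R 4.3.3, quasi-likelihood F test, robust), and p-values were Benjamini-Hochberg adjusted over all genes tested. Diet was tested likewise, where cohorts allowed, and 1 streptozotocin microglia library that alone made up its cohort had no weight in that fit. Population differences and the interaction came from fits over all libraries concerned. For the diets, numbers of islet and peritoneal replicates match the labelled cohorts, so same-numbered libraries were paired by cohort, with mean correlations of their deviations of 0.065 (2 of 10 pairs over 0.1) and 0.165 (9 of 13). Intervals are at 95%. DESeq2 1.42.0, voom with quality weights (limma 3.58.1), RLE scaling, no filter, a replicate block, no cohort term and omitted libraries were alternatives. The fit was also run on counts simulated from peritoneal libraries only, which does not cover the other populations or genes near 0. No libraries of a group were identical (443 pairs). Nothing says that replicates came from separate animals, so p-values measure the spread between these libraries, which may be technical. Lists, motifs and the named members (leading genes of each role, those with the smallest p, and the largest difference in each direction for each population) were chosen with earlier results of these data known. In the mTORC1 list 1 further symbol had no match.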

Additional observations from a re-analysis of the deposited data

Results flagged for a closer look

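The effect of refeeding on Optn differed between the 7 populations (adjusted p = 0.0104, edgeR interaction test), where 10.1% of all genes were called. Its effect in microglia minus the mean of the other populations was -6.32 on the log2 scale. In the fit of microglia alone Optn missed the threshold (adjusted p = 0.77, edgeR). Refed microglia were at or near 0, so Optn passed the low-count filter there only through the fasted group. The fitted size depends on how the model treats zeros.

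Single libraries stood far from the others of their group, by Dixon's criterion. Over 24 members, 46 of 528 groups had such a library. The criterion gives about 1 in 20 by chance for normally distributed values. CPM values with zeros and long upper tails are not of that kind, so the rate is no yardstick here. Among the members described most fully, Optn stood apart at 6.11 CPM in fasted monocyte replicate 8 and at 2.36 CPM in refed monocyte replicate 9, in groups listed mostly at 0. It also stood apart at 0.98 CPM in refed microglia replicate 4, at 92.2 CPM in refed Kupffer replicate 4 and, in the diet experiment, at 8.89 CPM in streptozotocin microglia replicate 4. Sqstm1 was low in fasted monocyte replicate 4 (230.16 CPM) and high in refed microglia replicate 5 (731.72 CPM). Sesn1 was 68.13 CPM in high-fat islet replicate 5. Sesn2 was low in high-fat islet replicate 1 (2.5 CPM) and high in normal-diet microglia replicate 3 (49.7 CPM). Sesn3, at 0 in 34 of 147 libraries, was 41.89 CPM in fasted microglia replicate 1, 8.67 CPM in refed Kupffer replicate 2 and 5.46 CPM in refed peritoneal replicate 1. Gabarapl1 was 64.51 CPM in refed microglia replicate 3, and Atg7 was 208.91 CPM in high-fat peritoneal replicate 1.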

How the results depend on the processing

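Of 259 alternative counts of members called, 252 stayed within 1.5 times of the reported count and 7 moved, each from 0 to 1: with DESeq2 in microglia refeeding (Optn), in islet streptozotocin against normal diet (Sqstm1) and in both peritoneal streptozotocin comparisons (Sesn2), with voom in the same 2 peritoneal comparisons, and with no filter in peritoneal streptozotocin against normal diet. The cause was not tested. Of 523 checks on named members, 511 kept direction and side of the threshold, 7 passed only under the alternative and 5 no longer passed, with 0 reversed. Beside those given above, peritoneal Sqstm1 was -1.38 with voom (adjusted p = 0.221). Leaving out single libraries gave 0 members called in every diet comparison and in microglia refeeding, and 9 to 12 on normal diet between populations (10 with all).

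With a replicate block, 0 members were called for refeeding in each of the 7 populations and 13 between fasted populations, against 16 without the block. The fit that gave 13 also left out the fasted islet libraries with a pair of replicate numbers. The part of the block in the lower count therefore cannot be told apart from that of the omitted libraries. Fasted and refed libraries of the same number had mean correlations of 0.008 to 0.081 in their deviations, not over 0.1 in every pair, and beyond their cohort, which the fits hold, they share only a number. In the islet and peritoneal diet fits the cohort term is the replicate block, and with no replicate block the counts were also 0. RLE scaling gave 14 called between fasted populations, voom 19, and refed libraries 14, of which 11 were shared. Libraries at 0 limit Sesn3, Optn, Wipi1 and Sesn2, and islet intervals for refeeding had a median half-width of 1.99 log2 units, against 0.53 in peritoneal macrophages.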
